A study of Mus musculus with 24 samples.

Results

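The 8 genes Trem2, Gpnmb, Ms4a7, Apoe, Lpl, Fabp5, Cd9 and Cd63 mark the scar-associated macrophages that gather in fibrotic tissue. They were taken by symbol from 20728 genes on the array, each through the array feature with the highest mean over all arrays. All 8 were measured. Apoe had 10 features and Lpl had 2, and each of the other genes had 1.

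The study profiled total RNA from whole lungs of C57BL/6 mice aged 9 to 12 weeks, with 24 one-colour Agilent arrays, 1 per sample. Mice were treated with bleomycin, which damages DNA and causes lung scarring, or with PBS. Every mouse also had a gapmer, a DNA-like antisense strand through which RNase H cuts the matching RNA. Gapmers 1 and 3 are directed against the noncoding RNA Dnm3os, and a control gapmer was used in the comparison mice. The groups were bleomycin with gapmer 1 (5 arrays), bleomycin with gapmer 3 (5), bleomycin with control gapmer (5), PBS with gapmer 1 (3), PBS with gapmer 3 (3) and PBS with control gapmer (3). The labels number the samples without naming animals, so the spread behind each p-value is that between samples and may be technical. The labels used here give no bleomycin dose, interval or sex.

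Lung macrophages come as resident alveolar macrophages, which clear surfactant from the airspace, and as cells that mature from blood monocytes after injury. In fibrosis, monocyte-derived cells can take up lipid and debris and adopt a state marked by the lipid receptor TREM2, which signals through the adaptor TYROBP, and by genes of lipid handling and the lysosome. The state is described in scarred lung and liver and in fatty tissue. Several of its markers are also made by other lung cells, so the whole-lung level of such a gene is not specific to macrophages.

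Each value is a log2 intensity, so a difference of 1 is a doubling. The array medians lay between 6.485 and 6.495, RNA integrity numbers between 8.5 and 10 and correlations between arrays of a group between 0.9861 and 0.9979. Dnm3os averaged 6.18 ± 0.19 and 6.4 ± 0.22 in bleomycin mice with gapmer 1 and gapmer 3, against 6.9 ± 0.17 with the control gapmer (SD, n = 5 each), and both differences passed the test (log2 differences of -0.72 and -0.5, limma adjusted p = 0.000186 and 0.00293). In PBS mice it averaged 5.89 ± 0.15 and 6.1 ± 0.14 with gapmers 1 and 3, against 6.34 ± 0.06 with the control gapmer (SD, n = 3 each), and neither difference passed (adjusted p = 0.0882 and 0.577). The Dnm3os signal was low on this array, where the 25th percentile of the gene means was 6.11. Arrays also differed in markers of tissue other than alveolar lung. The mean of 10 skeletal muscle markers ran from 7.78 to 12.48 in bleomycin mice with gapmer 3 and from 6.72 to 12.35 in PBS mice with gapmer 3. The lowest were replicate 1 of the bleomycin group and replicate 2 of the PBS group. The mean of 11 squamous and basal epithelial markers, of which Krt6a, Dsg3 and Ivl averaged below that percentile, is given below beside the results it touches.

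Of the 8 genes, 6 have promoters in the RefSeq table of GRCm38.p6 that was used here, and Fabp5 and Lpl are named only. Each promoter holds 250 bases before and 50 after a start site. The motif TGANTCA, a looser form of the AP-1 core TGA(C/G)TCA, was searched on both strands, along with GAGGAA, a core of PU.1 sites, and CACGTG, the core of MITF and TFE sites. TGANTCA was found at Trem2, Gpnmb and the second start of Ms4a7, the 3 genes with the largest differences between bleomycin and PBS below. Only the match at Gpnmb has C or G at the central base, and those at Trem2 and Ms4a7 have A and T there. Of all 32851 promoters, each counted by itself, 7.81% hold it, whereas the 6 genes have 9 start sites between them. Whether the motif goes with those differences was not tested. Their sequences are shown, 5′ to 3′ on the gene's strand, with TGANTCA in capitals.
Trem2, chr17:48346151-48346450, plus strand: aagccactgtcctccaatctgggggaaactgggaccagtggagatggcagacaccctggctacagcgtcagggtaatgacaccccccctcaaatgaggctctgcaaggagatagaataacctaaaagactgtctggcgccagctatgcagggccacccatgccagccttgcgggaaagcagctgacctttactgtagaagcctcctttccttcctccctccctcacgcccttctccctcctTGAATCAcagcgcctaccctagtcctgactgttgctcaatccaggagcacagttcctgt
Gpnmb, chr6:49036268-49036567, plus strand: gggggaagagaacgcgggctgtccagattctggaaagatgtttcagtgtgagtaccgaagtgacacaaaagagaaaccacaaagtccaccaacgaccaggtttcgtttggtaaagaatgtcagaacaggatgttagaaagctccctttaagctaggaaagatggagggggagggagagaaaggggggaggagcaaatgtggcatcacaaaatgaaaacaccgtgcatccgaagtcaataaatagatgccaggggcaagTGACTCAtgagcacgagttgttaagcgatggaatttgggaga
Ms4a7, second start, chr19:11334646-11334945, minus strand: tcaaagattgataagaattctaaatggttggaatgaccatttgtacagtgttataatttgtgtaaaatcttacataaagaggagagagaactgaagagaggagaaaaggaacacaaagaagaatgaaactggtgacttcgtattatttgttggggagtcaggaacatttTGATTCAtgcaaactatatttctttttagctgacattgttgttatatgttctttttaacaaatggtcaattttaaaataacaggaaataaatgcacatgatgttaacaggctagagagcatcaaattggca
The match began 9 bases before the start at Trem2, at base 9 after it at Gpnmb and 81 bases before it at Ms4a7. GAGGAA was found at Trem2, Ms4a7, Apoe and Cd63, and 28.3% of all promoters hold it. CACGTG was found at none of the 6, and 7.15% of all promoters hold it. A match says only that these letters are in the window.

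Trem2, Gpnmb, Ms4a7 and Apoe rose with bleomycin under each gapmer, Trem2 most, and Cd63 and Lpl rose under each by less. Under the control gapmer, 6 of the 8 genes rose and Cd9 fell, against 14.5% of all genes called higher and 19.3% called lower. A gene was called where limma's adjusted p, over all genes of the comparison, was under 0.05. Where the arrays of a group are said below to lie apart from others, the share of all genes that do so was not counted. The median difference of the 8 genes was 0.81 on the log2 scale, and that of all genes was -0.02. Under gapmer 1, 6 genes were called higher and none lower, against 6.35% and 3.13% of all genes. Under gapmer 3, 7 were called higher and none lower, against 7.02% and 6.85% of all genes. In whole tissue, fewer cells of a type and less RNA per cell cannot be told apart.

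Markers of other cells also moved in the comparison under the control gapmer. The mean of the squamous and basal epithelial markers was 9.33 to 9.93 in bleomycin mice, against 6.36 to 8.24 in PBS mice, and 6 of the 11 genes rose. All 8 endothelial markers and 5 of 9 alveolar type 2 cell markers fell, with median differences of -0.87 and -0.44. All 6 platelet markers (median -1.11), 5 of 9 adipose markers (-0.75), 5 of 8 cardiac muscle markers (-0.66), 4 of 10 neutrophil markers (-0.27), 3 of 10 fibroblast markers (-0.16) and 2 of 10 skeletal muscle markers (-1.04) fell as well. Of these lists, 1 fibroblast gene rose, and of 9 dendritic cell markers 5 rose and 1 fell. These counts are to be read against the 14.5% of all genes called higher and the 19.3% called lower. The count of skeletal muscle markers is near the latter share. The part of the endothelial, alveolar type 2, platelet, cardiac, neutrophil, fibroblast and dendritic cell markers in the results was not tested. With the squamous and basal epithelial mean as a covariate, Trem2 differed by 3.29, Gpnmb by 2.36, Ms4a7 by 2.4, Apoe by 1.18 and Cd63 by 0.51, all of them called (adjusted p of 0.00028 or less), whereas Lpl and Cd9 were no longer called. The groups did not overlap in that mean, so each such fit of this comparison extrapolates from the spread within groups. It cannot separate the epithelial markers from bleomycin.

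**Figure D1:**
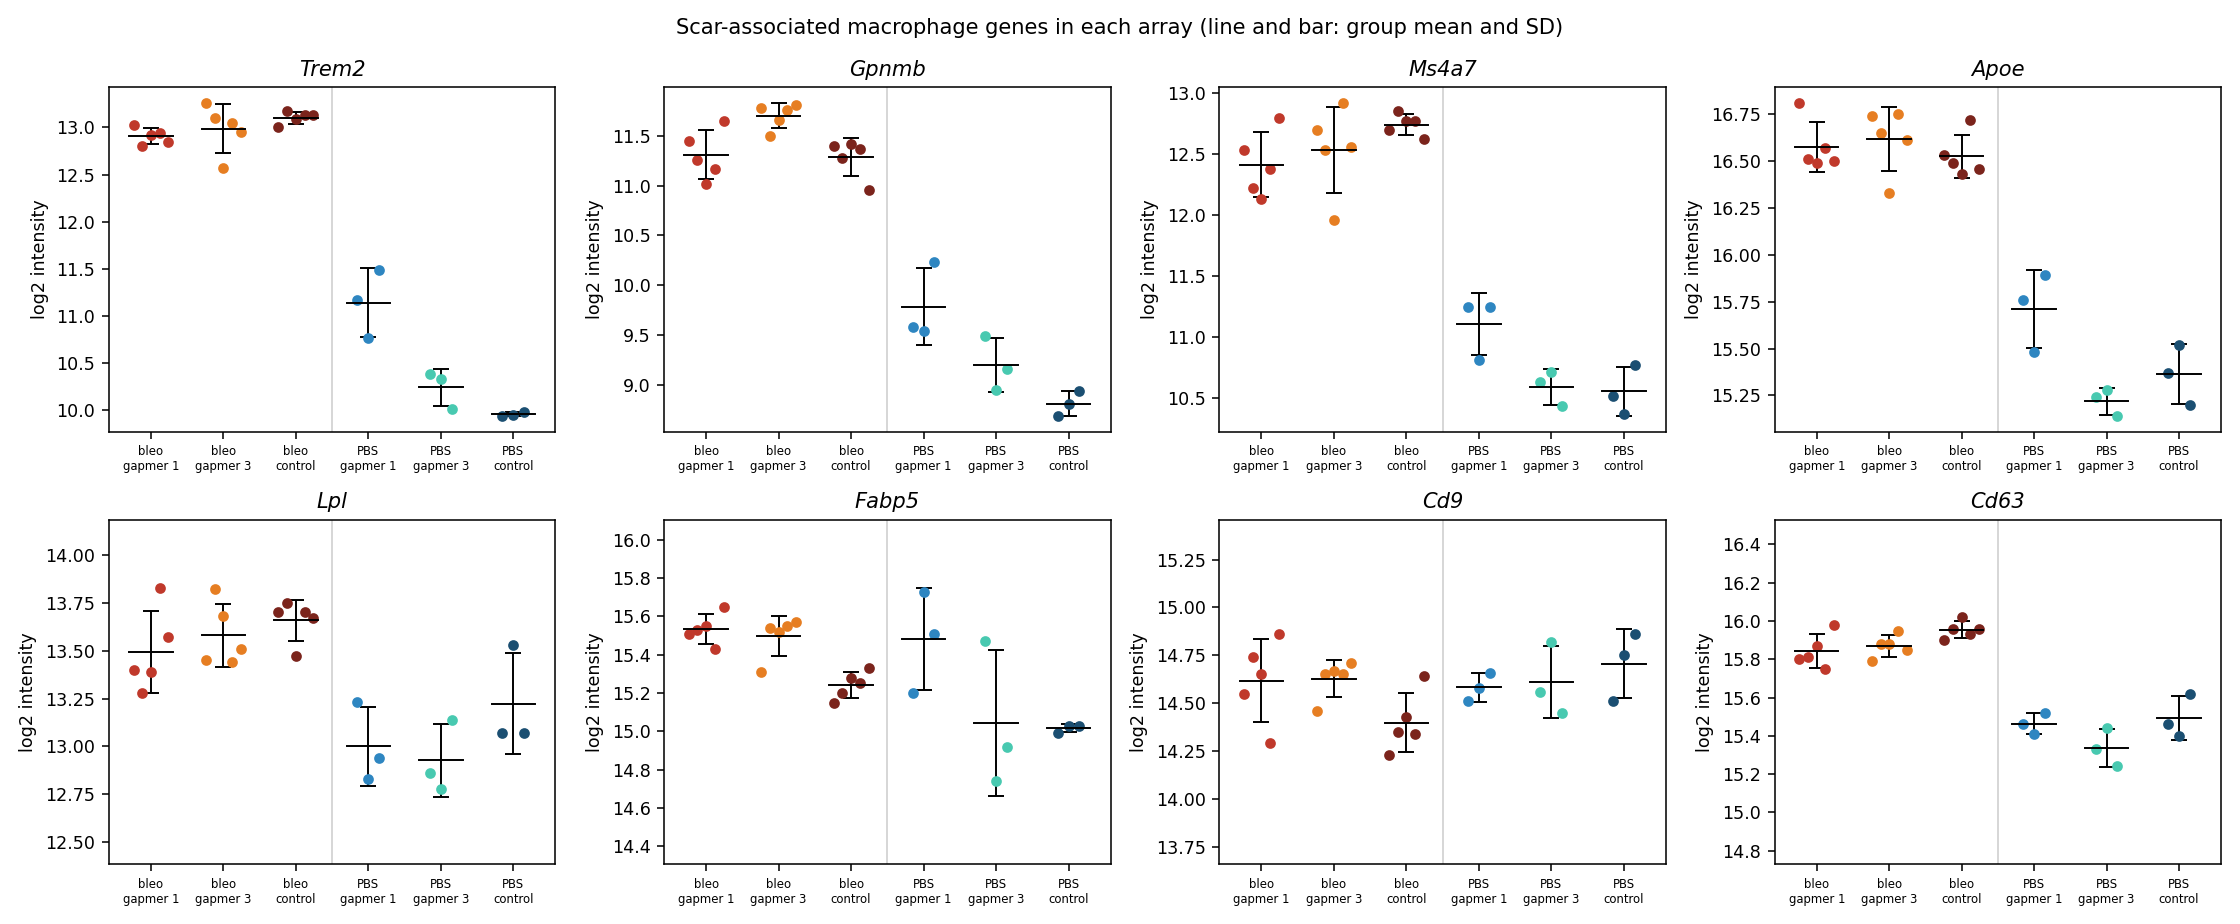
Log2 intensity of each gene in each array, in bleomycin mice (left of the grey line) and PBS mice (right of it) with gapmer 1, gapmer 3 or control gapmer. Points are arrays, and the lines and bars are group means and SD; the vertical scales differ between panels. Trem2 lies between 12.57 and 13.26 in bleomycin arrays and between 9.94 and 11.49 in PBS arrays, whereas Cd9 overlaps across the groups.

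Trem2, the lipid-sensing receptor that gives the macrophage state its name, had levels of 13, 13.17, 13.09, 13.13 and 13.13 in bleomycin mice with the control gapmer, against 9.94, 9.95 and 9.98 in PBS mice with the control gapmer. The log2 difference was 3.15 (SE 0.13, 8.86-fold, adjusted p = 7.92e-13). With gapmer 1, Trem2 levels were 13.03, 12.8, 12.92, 12.94 and 12.85 in bleomycin mice, against 11.17, 10.76 and 11.49 in PBS mice. All of the bleomycin arrays lay above all of the PBS arrays, and the difference was 1.77 (SE 0.13, adjusted p = 9.06e-08). With gapmer 3, the levels were 13.26, 13.1, 12.57, 13.05 and 12.95 in bleomycin mice, against 10.38, 10.33 and 10.01 in PBS mice. The difference there was 2.74 (SE 0.13, adjusted p = 1.93e-11), again without overlap. The ranges of the 3 bleomycin groups overlapped, whereas those of the PBS groups did not, with gapmer 1 above gapmer 3 and gapmer 3 above control.

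Gpnmb, a membrane glycoprotein of lysosome-rich macrophages and of pigment cells, had levels of 11.4, 11.28, 11.42, 11.37 and 10.96 in bleomycin mice with the control gapmer, against 8.69, 8.81 and 8.94 in PBS mice with the control gapmer. The difference was 2.47 (SE 0.16, adjusted p = 3.89e-10). With gapmer 1 it was 11.45, 11.26, 11.02, 11.17 and 11.65 in bleomycin mice, against 9.58, 9.54 and 10.23 in PBS mice, a difference of 1.53 (SE 0.16, adjusted p = 4.42e-06). With gapmer 3 it was 11.78, 11.5, 11.66, 11.76 and 11.81 in bleomycin mice, against 9.49, 8.95 and 9.16 in PBS mice, a difference of 2.5 (SE 0.16, adjusted p = 1.03e-09). Bleomycin and PBS arrays did not overlap under any of the 3 gapmers.

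Ms4a7, a membrane protein of the MS4A family found on monocyte-derived macrophages, had levels of 12.7, 12.85, 12.77, 12.77 and 12.62 in bleomycin mice with the control gapmer, against 10.52, 10.37 and 10.77 in PBS mice with the control gapmer. The difference was 2.19 (SE 0.17, adjusted p = 6.02e-09). With gapmer 1 it was 12.53, 12.22, 12.13, 12.38 and 12.8 in bleomycin mice, against 11.25, 10.81 and 11.25 in PBS mice, a difference of 1.31 (SE 0.17, adjusted p = 3.9e-05). With gapmer 3 it was 12.7, 12.53, 11.96, 12.92 and 12.56 in bleomycin mice, against 10.63, 10.71 and 10.43 in PBS mice, a difference of 1.95 (SE 0.17, adjusted p = 7.72e-08). Again there was no overlap.

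Apoe, the lipid-carrier apolipoprotein that macrophages secrete, was among the brightest genes of the array, whose deposited values reach 18.25; flags for saturated spots were not used here. Its levels were 16.53, 16.49, 16.43, 16.72 and 16.46 in bleomycin mice with the control gapmer, against 15.37, 15.52 and 15.2 in PBS mice with the control gapmer. The difference was 1.16 (SE 0.11, adjusted p = 5.22e-08), 0.86 under gapmer 1 and 1.4 under gapmer 3, all of them called (adjusted p = 2.61e-05 and 1.21e-08 for gapmers 1 and 3). All 10 Apoe features were called higher in each of these comparisons, with differences of 1.13 to 1.43 under the control gapmer.

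Lpl, the lipoprotein lipase that releases fatty acids from lipoproteins and is also made by fat and muscle cells, had levels of 13.7, 13.75, 13.47, 13.7 and 13.67 in bleomycin mice with the control gapmer, against 13.07, 13.53 and 13.07 in PBS mice with the control gapmer. These ranges overlapped at 13.47 and 13.53. The difference was 0.44 (SE 0.13, adjusted p = 0.013), 0.49 under gapmer 1 (adjusted p = 0.0195) and 0.65 under gapmer 3 (adjusted p = 0.00159). The second, dimmer feature of Lpl gave 0.86 under the control gapmer, and was also called there, but not under gapmers 1 and 3. Replicate 2 of the PBS control group, highest for Lpl, was also highest in that group for the mean of the skeletal muscle markers (12.45, with 11.33 and 11.54 in the other arrays) and for the mean of the 9 adipose markers (11.36, with 10.49 and 10.78). Their part in the Lpl level was not tested, but with the adipose mean as a covariate the difference was 0.68 (adjusted p = 0.000364), and with the muscle mean 0.57 (adjusted p = 0.00159). Without PBS control replicate 1 or 3 the difference under the control gapmer was 0.36 (adjusted p = 0.0791 and 0.0857), and with the squamous and basal epithelial mean as a covariate 0.31 (adjusted p = 0.25). Under gapmer 1 the call also ended without bleomycin replicate 4 or PBS replicate 2 or 3, with differences of 0.41, 0.41 and 0.46. It ended as well with the replicate number as a block (0.47, adjusted p = 0.061), with the RNA integrity number as a covariate (0.39, adjusted p = 0.123), with features averaged per gene (0.38, adjusted p = 0.124) and with only the groups compared (0.49, adjusted p = 0.0964).

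Cd63, a lysosomal tetraspanin, had levels of 15.9, 15.96, 16.02, 15.93 and 15.96 in bleomycin mice with the control gapmer, against 15.46, 15.4 and 15.62 in PBS mice with the control gapmer. The difference was small beside those of Trem2 and Gpnmb, at 0.46 (SE 0.06, adjusted p = 8.06e-06), 0.38 under gapmer 1 and 0.53 under gapmer 3 (adjusted p = 0.000567 and 5.86e-06), without overlap in any of the 3 comparisons.

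Fabp5, a fatty-acid binding protein of macrophages that is also the keratinocyte form of the family, was called higher only under gapmer 3, with a difference of 0.46 (SE 0.12, adjusted p = 0.0123). Its levels were 15.31, 15.54, 15.52, 15.55 and 15.57 in bleomycin mice with gapmer 3, against 15.47, 14.74 and 14.92 in PBS mice with gapmer 3. The differences under gapmer 1 and the control gapmer were 0.06 (95% interval -0.19 to 0.31) and 0.23 (-0.02 to 0.48), neither of them called. The response under gapmer 3 differed from that under the control gapmer by 0.23 (-0.12 to 0.59, adjusted p = 0.518), and the responses under gapmers 3 and 1 were not tested against each other. Within PBS mice with gapmer 3, the array with the highest Fabp5, 15.47, had the highest mean of the squamous and basal epithelial markers, 9.71, where the arrays at 14.74 and 14.92 had 6.45 and 7.75. With that mean as a covariate the difference under gapmer 3 was 0.37 (adjusted p = 0.0122) and under the control gapmer -0.1 (adjusted p = 0.656). Without PBS replicate 2 or 3 of gapmer 3 the difference was 0.31 or 0.4 (adjusted p = 0.14 and 0.0797). The call also ended with both arrays lowest in muscle markers left out (0.35, adjusted p = 0.0915). It ended as well with only the groups compared in the fit (0.46, adjusted p = 0.0768), a setting in which the difference under the control gapmer was called (0.23, adjusted p = 0.0311).

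Cd9, a tetraspanin found on many cell types, was called lower with bleomycin under the control gapmer. Its levels were 14.23, 14.35, 14.43, 14.34 and 14.64 in bleomycin mice with the control gapmer, against 14.51, 14.75 and 14.86 in PBS mice with the control gapmer. The groups overlapped, and the difference was -0.31 (SE 0.11, adjusted p = 0.0424). The call held in 2 of 8 fits that left out 1 array, with differences of -0.41 to -0.23 and adjusted p of 0.0154 to 0.213. It ended without bleomycin replicate 1, 2, 3 or 4 (adjusted p = 0.0989, 0.0759, 0.0551 and 0.0764) and without PBS replicate 2 or 3 (adjusted p = 0.118 and 0.213), as well as with the squamous and basal epithelial mean as a covariate (-0.25, adjusted p = 0.315). It also ended with the RNA integrity number (adjusted p = 0.078) or the adipose mean (0.111) as a covariate, with only the groups compared (0.0594) and with a position trend removed (0.0825). Under gapmers 1 and 3 the differences were 0.03 and 0.02 and were not called. These responses differed from that under the control gapmer by 0.34 (adjusted p = 0.207) and 0.33 (adjusted p = 0.29), neither of them called.

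**Figure D2:**
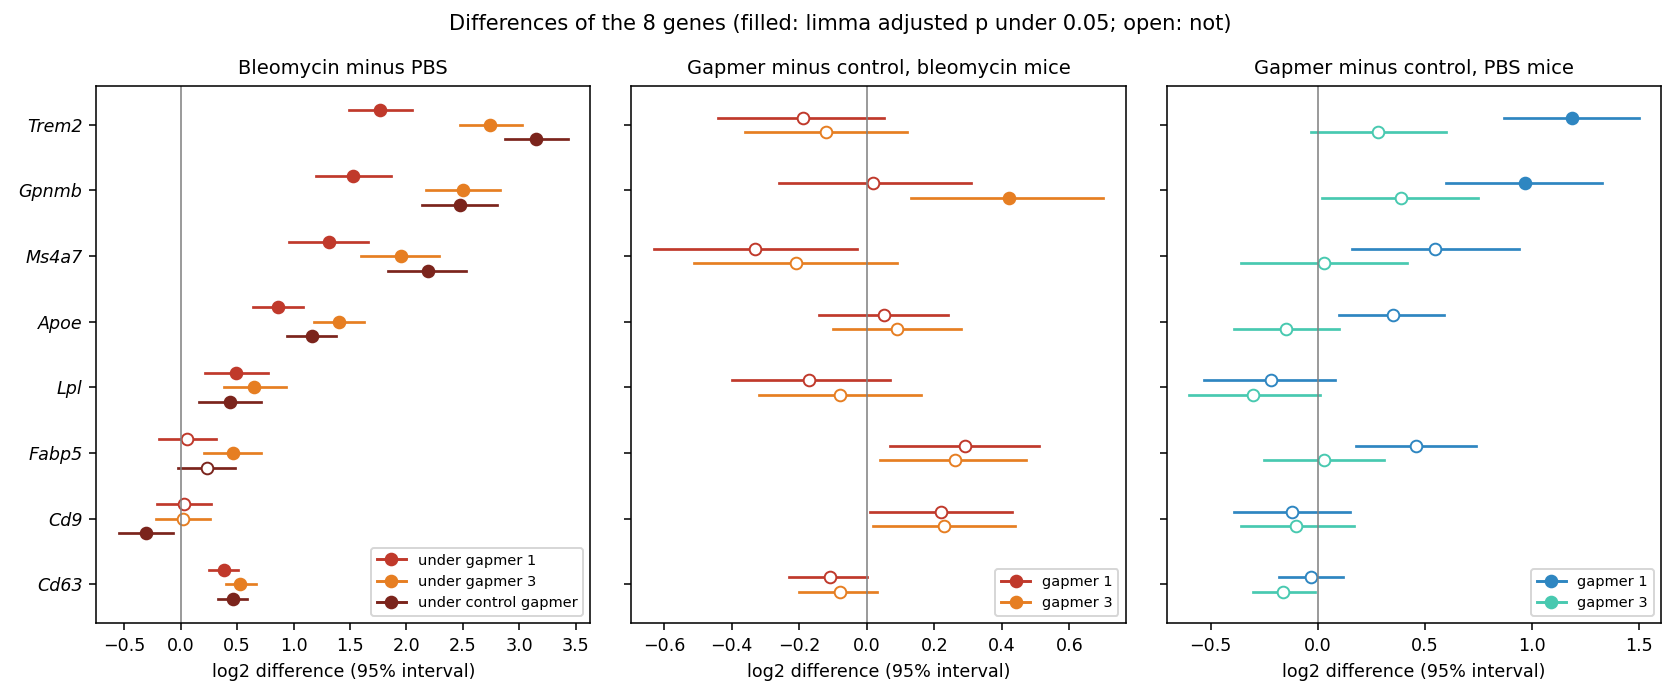
Log2 differences of the 8 genes with 95% intervals from limma (not adjusted for the number of genes), for bleomycin minus PBS (left), and for each gapmer minus the control gapmer in bleomycin mice (middle) and in PBS mice (right). Filled points passed an adjusted p of 0.05. Trem2 and Gpnmb are the genes called in PBS mice with gapmer 1, at 1.19 and 0.97.

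The gapmer comparisons asked whether the Dnm3os gapmers changed these genes. In bleomycin mice none of the 8 was called with gapmer 1, against 5.47% of all genes called higher and 5.08% called lower. With gapmer 3, 1 was called, against 5.63% of all genes called higher and 7.52% lower. That gene was Gpnmb, at 11.78, 11.5, 11.66, 11.76 and 11.81 with gapmer 3, against 11.4, 11.28, 11.42, 11.37 and 10.96 with the control gapmer. All gapmer 3 arrays lay above all control arrays, and the difference was 0.42 (SE 0.14, adjusted p = 0.0473). The call ended in 9 of the 10 fits that left out 1 of these arrays, in which the difference was between 0.33 and 0.47. It held without gapmer 3 replicate 2 (0.47, adjusted p = 0.0405), and the smallest difference, 0.33, was without control replicate 5 (adjusted p = 0.116). The call also ended with the replicate number as a block (0.42, adjusted p = 0.0554), with the muscle mean (0.41, adjusted p = 0.0606) or the squamous and basal epithelial mean (0.47, adjusted p = 0.0516) as a covariate, and with both arrays lowest in muscle markers left out (0.4, adjusted p = 0.0785).

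For Trem2 the interval of the difference in bleomycin mice was -0.44 to 0.05 with gapmer 1 and -0.36 to 0.12 with gapmer 3, around values of -0.19 and -0.12. Ms4a7 differed by -0.33 (-0.63 to -0.03, adjusted p = 0.167) and -0.21 (-0.51 to 0.09, adjusted p = 0.412) with gapmers 1 and 3. Apoe differed by 0.05 (-0.14 to 0.24) and 0.09 (-0.1 to 0.28). Fabp5 was above all control arrays in all gapmer 1 arrays, at 15.51, 15.53, 15.55, 15.43 and 15.65 with gapmer 1, against 15.15, 15.2, 15.28, 15.25 and 15.33 with the control gapmer, but the difference of 0.29 was not called (SE 0.1, adjusted p = 0.0793). It was called with the squamous and basal epithelial mean as a covariate (0.38, adjusted p = 0.00601) and also with array weights, with only the groups compared and with both arrays lowest in muscle markers left out (adjusted p of 0.0197 to 0.0471). With gapmer 3 the Fabp5 difference was 0.26 (adjusted p = 0.115), and it was called in the same 4 settings (0.26 to 0.42). The 5 control arrays enter both gapmer comparisons. None of the 8 genes was called between gapmer 3 and gapmer 1, where limma called 0.0% of all genes and 838 had an unadjusted p under 0.05. Trem2 differed there by 0.07 (-0.17 to 0.32), Gpnmb by 0.39 (0.11 to 0.68) and Ms4a7 by 0.12 (-0.18 to 0.42), each as gapmer 3 minus gapmer 1. The squamous and basal epithelial mean was 9.03 to 9.27 with gapmer 1 and 6.79 to 9.15 with gapmer 3, against 9.33 to 9.93 with the control gapmer. Neither range reached that of the control gapmer, so fits with this covariate again extrapolate from the spread within groups. With gapmers 1 and 3, 6 and 7 of the 9 alveolar type 2 cell markers were called higher, against 5.47% and 5.63% of all genes.

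In PBS mice, 2 of the 8 genes were called higher with gapmer 1 and none lower, against 0.444% of all genes called higher and 0.666% lower. Trem2 had levels of 11.17, 10.76 and 11.49 with gapmer 1, against 9.94, 9.95 and 9.98 with the control gapmer. The difference was 1.19 (SE 0.15, 2.27-fold, adjusted p = 0.00132), larger than the spread in either group and called in all 6 fits that left out 1 array (1.01 to 1.38) and in all 16 other settings. Gpnmb had levels of 9.58, 9.54 and 10.23 with gapmer 1, against 8.69, 8.81 and 8.94 with the control gapmer. Its difference was 0.97 (SE 0.18, adjusted p = 0.0195), without overlap. It was not called without gapmer 1 replicate 3 (0.74, adjusted p = 0.053), without control replicate 1 (0.9, adjusted p = 0.087) or without control replicate 3 (1.03, adjusted p = 0.0592), nor with only the groups compared (0.97, adjusted p = 0.0746).

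Ms4a7 had 11.25, 10.81 and 11.25 with gapmer 1, against 10.52, 10.37 and 10.77 with the control gapmer, above all control arrays but not called (0.55, adjusted p = 0.131). Apoe had a difference of 0.35, also not called. Fabp5 had 15.2, 15.73 and 15.51 with gapmer 1, against 14.99, 15.03 and 15.03 with the control gapmer, again above all control arrays but not called (0.46, SE 0.13, adjusted p = 0.0805). It was called with the RNA integrity number or the muscle mean as a covariate, with array weights, with a position trend removed and with both arrays lowest in muscle markers left out (0.46 to 0.56, adjusted p of 0.0256 to 0.048). With the squamous and basal epithelial mean as a covariate it was 0.17 (adjusted p = 0.777). With gapmer 3 none of the 8 was called, against 0.00965% of all genes called higher and 0.0241% lower. All gapmer 3 arrays lay above all control arrays for Trem2 and Gpnmb, with differences of 0.28 and 0.39 that were not called (adjusted p = 0.558 and 0.489). With 3 arrays in each group such separation is easily met by chance, and its share among all genes was not counted.

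Beside this, the mean of the squamous and basal epithelial markers was 9.29, 9.79 and 9.29 in PBS mice with gapmer 1, against 7.69, 8.24 and 6.36 with the control gapmer, and none of these 11 genes was called. With that mean as a covariate, Trem2 differed by 1.31 (adjusted p = 0.00843) and Gpnmb by 0.86 (adjusted p = 0.241). Here too the groups did not overlap in that mean, so such fits cannot separate it from the gapmer. The mean of the 12 pan-macrophage markers was 11.33 to 11.49 with gapmer 1 and 11.07 to 11.36 with the control gapmer. These ranges overlapped only between 11.33 and 11.36, and the median difference of the 12 markers was 0.25, with none called. The means of the TREM2 signalling and macrophage lipid-handling lists described below also overlapped. Their median differences were 0.03 and 0.17, with none called. The mean of the 16 lysosomal genes was 13.02 to 13.15 with gapmer 1 and 12.93 to 13.01 with the control gapmer, ranges that nearly touched. That of the 13 products of scar macrophages was 10.87 to 11.04 with gapmer 1 and 10.73 to 10.79 with the control gapmer. The median differences of the lysosomal and product lists were 0.17 and 0.06. In them 1 and 0 genes were called higher, where 0.444% of all genes were. Among the listed macrophage and lysosome genes, Ctsd (0.44, adjusted p = 0.0333), a lysosomal protease, and Itgax (0.42, adjusted p = 0.016), the integrin CD11c, were called in PBS mice with gapmer 1.

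The change in the bleomycin response was tested as the difference between the responses. With gapmer 1, 3 of the 8 genes had a smaller response than with the control gapmer and none a larger one, against 2.74% of all genes called lower and 4.97% called higher. Trem2 differed by -1.38 (SE 0.19, adjusted p = 0.0003), Gpnmb by -0.94 (SE 0.22, adjusted p = 0.0152) and Ms4a7 by -0.88 (SE 0.24, adjusted p = 0.0279). For Trem2, the bleomycin groups differed by -0.19 and the PBS groups by 1.19, so most of the -1.38 lay between the PBS groups. For Gpnmb these parts were 0.02 and 0.97, and for Ms4a7 they were -0.33 and 0.55. With the squamous and basal epithelial mean as a covariate, Trem2 differed by -1.55 (adjusted p = 0.00185), Gpnmb by -0.81 (adjusted p = 0.149) and Ms4a7 by -1.12 (adjusted p = 0.0559). The limit given above for this covariate holds here as well. With gapmer 3 none was called, against 1.64% of all genes called lower and 1.45% higher, and Trem2 differed by -0.4 (-0.8 to -0.01, adjusted p = 0.261).

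The Ms4a7 call for gapmer 1 ended in 6 of 16 fits that left out 1 array. These were without bleomycin control replicate 2 (-0.85), bleomycin gapmer 1 replicate 3 (-0.81), PBS control replicates 1 and 2 (-0.86 and -0.78), and PBS gapmer 1 replicates 1 and 3 (-0.8 each), at adjusted p of 0.0518 to 0.076.

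Genes that work with these 8 were taken from 4 lists, whose counts are to be read against the shares of all genes called. These were 14.5% higher and 19.3% lower with bleomycin under the control gapmer. In bleomycin mice they were 5.47% and 5.63% higher, and 5.08% and 7.52% lower, with gapmers 1 and 3. Of 12 TREM2 signalling genes and partners, 9 rose with bleomycin under the control gapmer and none fell, with a median difference of 0.56. Tyrobp, the adaptor that carries the TREM2 signal, had a difference of 0.79 (SE 0.1, adjusted p = 4.85e-06), and Ms4a6d, an MS4A family member, had 1.78 (SE 0.18, adjusted p = 2.09e-07). With gapmer 1 in bleomycin mice 5 of the 12 fell and none rose, and with gapmer 3, 6 fell and none rose, with medians of -0.2 and -0.27. Ms4a4a, whose human counterpart is tied to the level of soluble TREM2, fell by 0.66 with gapmer 1 and by 0.83 with gapmer 3 (adjusted p = 0.00228 and 0.000192). Tyrobp was at 0.01 and -0.08 in these comparisons and was not called.

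Of 16 macrophage lipid-handling genes, 8 rose with bleomycin and 4 fell, with a median of 0.33. Msr1, a scavenger receptor, had the largest rise, 1.97 (SE 0.31, adjusted p = 3.55e-05), and Fabp4, a fatty-acid binding protein of fat, endothelium and macrophages, had the largest fall, -1.57 (SE 0.39, adjusted p = 0.00307). With gapmers 1 and 3 in bleomycin mice, 3 and 5 rose and none fell. Apoc1, an apolipoprotein encoded beside Apoe, was called higher with each, by 0.52 and 0.51 (adjusted p = 0.00537 and 0.00463).

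Of 16 genes of the lysosome and its regulators, 11 rose with bleomycin and none fell, with a median of 0.59. Ctss, a cysteine protease of antigen processing, had the largest rise, at 1.37 (SE 0.11, adjusted p = 1.24e-08). With each gapmer in bleomycin mice 2 rose and none fell, among them Lamp1, a lysosomal membrane protein, by 0.24 with gapmer 1 and 0.28 with gapmer 3 (adjusted p = 0.00575 and 0.001).

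Of 13 products of macrophages in scar, 9 rose with bleomycin and 2 fell, with a median of 0.6. Spp1, the matrix protein osteopontin, had the largest rise, 3.87 (SE 0.2, adjusted p = 2.4e-11), and Vegfa, a growth factor for vessels, the largest fall, -0.68 (SE 0.09, adjusted p = 3.5e-06). With gapmer 1 in bleomycin mice 7 fell and 1 rose, and with gapmer 3, 6 fell and 1 rose, with medians of -0.34 and -0.46. Mmp12, macrophage elastase, fell by 1.0 with gapmer 1 (adjusted p = 0.00232), and Il1b, an inflammatory cytokine, fell by 0.96 with gapmer 3 (adjusted p = 0.00381). The gene that rose in both was Vegfa, by 0.47 and 0.55 (adjusted p = 0.000431 and 4.91e-05). Spp1 levels were 12.73 to 13.65 with gapmer 1, against 13.61 to 14.07 with the control gapmer, a called difference of -0.73 (adjusted p = 0.00883). With gapmer 3, Spp1 differed by -0.5 and was not called (adjusted p = 0.0615).

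Macrophage markers moved as follows. Of 12 pan-macrophage genes, 9 rose with bleomycin under the control gapmer and none fell, with a median of 1.02. For all genes the shares called were 14.5% higher and 19.3% lower. C1qb, a complement chain of tissue macrophages, had 2.13 (SE 0.16, adjusted p = 3.14e-09), Adgre1, the F4/80 antigen, 0.83 and Cd68, a lysosomal glycoprotein, 0.93. With gapmer 1 in bleomycin mice 3 fell and none rose, and with gapmer 3, 3 fell and 2 rose. Among all genes, 5.08% and 7.52% were called lower and 5.47% and 5.63% higher with gapmers 1 and 3. The list thus moved both ways with gapmer 3, and the 2 that rose are not named here. Fcgr1, a high-affinity receptor for IgG, fell by 0.6 with each gapmer (adjusted p = 0.00132 and 0.000857). Adgre1 was at -0.25 and -0.18 and Cd68 at 0.07 and 0.0 with gapmers 1 and 3, none called. Their mean was 11.89 to 12.23 with gapmer 1 and 11.9 to 12.21 with gapmer 3, against 12.14 to 12.33 with the control gapmer.

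Of 11 monocyte-derived macrophage genes, 8 rose with bleomycin and none fell, with a median of 1.0, where 14.5% of all genes were called higher and 19.3% lower. Arg1, an arginine-degrading enzyme, had the largest rise, 3.29 (SE 0.32, adjusted p = 1.22e-07). With gapmer 1, 4 of these fell and none rose, and with gapmer 3, 7 fell and none rose, where 5.08% and 7.52% of all genes were called lower with gapmers 1 and 3. Arg1 fell by 1.73 with gapmer 1 and by 2.07 with gapmer 3 (adjusted p = 0.000445 and 4.13e-05). Their mean was 10.09 to 10.88 with gapmer 1 and 9.98 to 10.43 with gapmer 3, against 10.75 to 11.12 with the control gapmer. In the same bleomycin mice the interval for Trem2 with gapmer 1 ran from -0.44 to 0.05. Of 11 alveolar macrophage genes, 3 rose with bleomycin and 5 fell, with a median of -0.19. Itgax had the largest rise, 1.16 (adjusted p = 1.03e-10), and Krt79 and Cidec had the largest fall, each at -2.08. Cidec, a lipid droplet protein, is also made by fat cells, and the mean of the adipose markers was 9.61 to 10.03 in bleomycin mice, against 10.49 to 11.36 in PBS mice. The part of the adipose markers in the fall of Cidec was not tested. None of the pan-macrophage, monocyte-derived and alveolar macrophage markers averaged below the 25th percentile of the gene means. These comparisons share their control arrays, and whether the macrophage markers and the 8 genes change by different amounts was not tested.

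**Figure D3:**
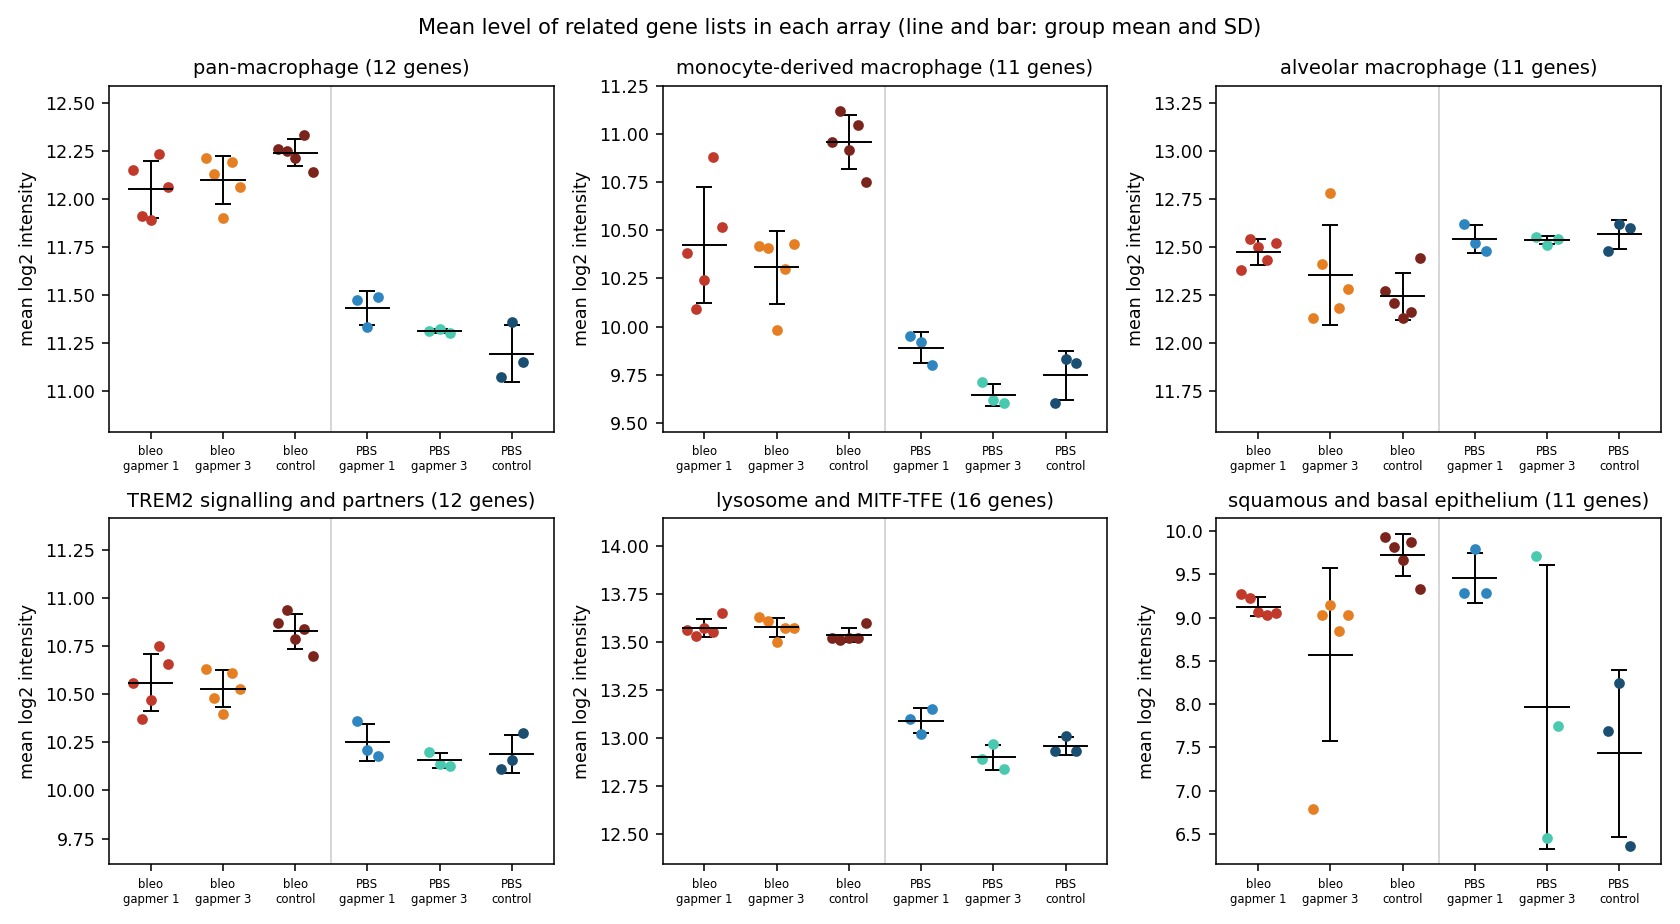
Mean log2 intensity of 6 gene lists in each array, in bleomycin mice (left of the grey line) and PBS mice (right of it) with gapmer 1, gapmer 3 or control gapmer. Points are arrays, and the lines and bars are group means and SD; the vertical scales differ between panels. The mean of the squamous and basal epithelial markers runs from 6.45 to 9.71 in PBS mice with gapmer 3, and the monocyte-derived macrophage mean is 10.75 to 11.12 in bleomycin mice with the control gapmer.

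Among 10356 genes with a level above the median, the group profiles most like each member were found by the root-mean-square (RMS) difference over 5 groups between the log2 differences from the PBS control mean. Members of the 8 were left out of this search. For Trem2 the nearest was Fxyd4, with an RMS of 0.16, and then Eln, the gene of elastin, at 0.25 and Spp1 at 0.49. For Gpnmb they were Slc26a4 at 0.32, H2-M2 at 0.42 and Fxyd4 at 0.45. For Ms4a7 they were Wfdc17 at 0.12, Clec4n at 0.13 and Psrc1 at 0.15. For Apoe they were Acp5 at 0.11, Itgax at 0.11 and Ctsk at 0.12. Among the members, Cd63 and Lpl were closest, with an RMS of 0.11, and Trem2 and Gpnmb had 0.39.

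The other 4 members have small differences, so that many genes lie near them. For Cd63 the nearest were Tgfbr1, Nrros and Htt at 0.05 each. For Lpl they were Rhou at 0.06 and Tfdp1 and Myo5a at 0.07 each. For Fabp5 they were Mmp11 at 0.07, Mia at 0.08 and Lypd6b at 0.09. For Cd9 they were Pomt2 and Ddit3 at 0.02 each and Meig1 at 0.03.

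**Figure D4:**
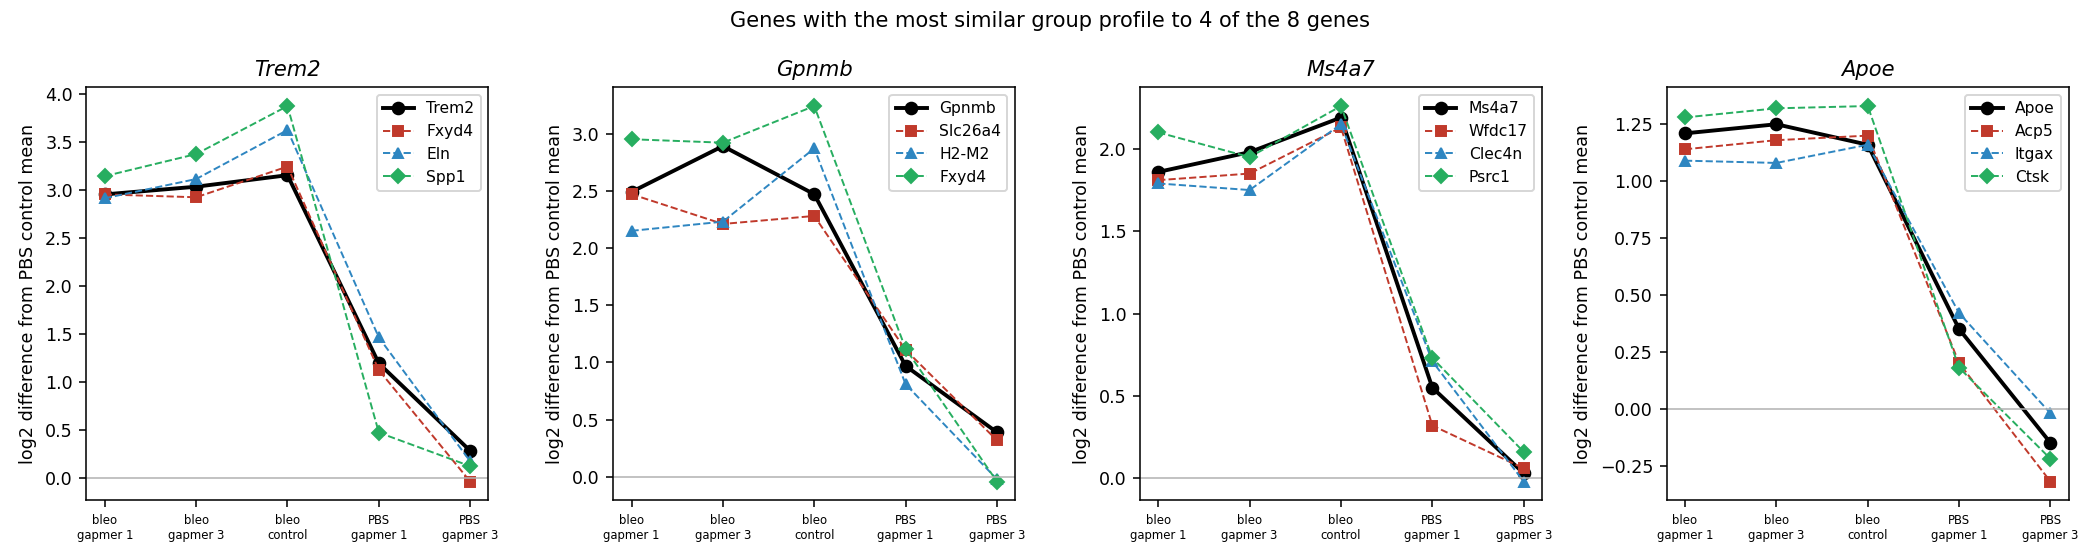
Log2 difference of each group mean from the PBS control mean, for Trem2, Gpnmb, Ms4a7 and Apoe (black) and the 3 genes with the smallest RMS difference from each (dashed), with vertical scales that differ between panels; the lines only join the groups. In PBS mice with gapmer 1, Fxyd4 is at 1.12 and Trem2 at 1.19.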

How the data were processed

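Total RNA of whole lung was hybridised to 24 one-colour arrays, 6 groups of 3 or 5, grouped by sample title. The authors deposited log2 intensities that are quantile-normalised between arrays, as the values show; the submitters' processing notes name limma, with no version; how background was handled is not given in the sources used. Of 62976 features 31465 had 1 symbol and 31511 none. Symbols were updated through the RefSeq table of GRCm38.p6, used for names, and promoters came from RefSeq's table of the same build. For 6176 genes with several features, the one with the highest mean was used, without a filter on level, giving 20728 genes. Columns not used number 0.

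One limma 3.58.1 fit (R 4.3.3; lmFit, eBayes, two-sided) covered all 24 arrays and 6 group means, with 18 residual and 3.26 prior degrees of freedom and a median residual SD of 0.14. Benjamini-Hochberg adjusted p over all genes of a contrast under 0.05 was called. Precision is limited by the number of arrays. The fit was tested on simulated data. Tables used Python 3.11.15, pandas 2.3.3 and NumPy 2.4.6, and plots matplotlib 3.10.9.

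The 8 genes and the lists were chosen with earlier results of these data known. Listed genes were named by largest called rise and fall per list, besides a fixed few; likeness took genes above the median level. Alternatives were another normalisation, array centring, removal of a position trend (blocks of 16 lines by 17 columns), dim genes left out, every feature tested, features averaged per gene, variance trend, robust prior, array weights, groups compared alone, RNA integrity number, replicate number as a block, adipose and muscle means as covariates and each array left out, and, after seeing the data, the squamous and basal epithelial mean as a covariate and both arrays lowest in muscle markers left out.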

Additional observations from a re-analysis of the deposited data

Results flagged for a closer look

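In 24 sets of 5 bleomycin arrays, 1 for each gene and group, 3 had an array far from the others by Dixon's test, and chance alone flags about 1 in 20. In bleomycin mice with gapmer 3, the lowest Fabp5 array was at 15.31 with the others between 15.52 and 15.57, and the lowest Cd9 array at 14.46 with the others between 14.65 and 14.71. Both values are from replicate 1, the array with the lowest skeletal muscle mean of its group (7.78) and a squamous and basal epithelial mean of 6.79, where the other arrays had 8.85 to 9.15. In bleomycin mice with gapmer 1, the highest Apoe array was at 16.81 with the others between 16.49 and 16.57.

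With gapmer 1 the bleomycin response differed from that with the control gapmer for 3 genes by the fit's own test of the difference. Trem2 differed by -1.38, Gpnmb by -0.94 and Ms4a7 by -0.88 (limma adjusted p = 0.0003, 0.0152 and 0.0279). Trem2 and Gpnmb were also called higher in PBS mice with gapmer 1, by 1.19 and 0.97, and neither was called lower in bleomycin mice. The part of the squamous and basal epithelial markers, whose mean was 9.29 to 9.79 in PBS mice with gapmer 1, against 6.36 to 8.24 with the control gapmer, was not tested beyond the covariate fits. As these ranges do not overlap, those fits cannot separate that mean from the gapmer.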

How the results depend on the processing

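Of 2064 alternative values of the 80 differences of the 8 genes, 1995 kept their side of the threshold, 51 lost a call and 18 gained one. None of the called differences reversed. Among the 1995, 51 changed sign, all of them uncalled in both fits. With gapmer 1 in bleomycin mice, where 0 genes were called, 3 were called with array weights, and 1 each with only the groups compared, with the squamous and basal epithelial mean as a covariate and without the 2 arrays lowest in muscle markers. With gapmer 3 in bleomycin mice, where 1 was called, 3 were called with array weights, 2 with only the groups compared and 0 with the skeletal muscle mean as a covariate. In PBS mice with gapmer 1, where 2 were called, 1 was called with only the groups compared and 1 with the squamous and basal epithelial mean, and 3, Fabp5 added, with the RNA integrity number, array weights, a position trend removed, the muscle mean or both arrays lowest in muscle left out. For the response with gapmer 1, where 3 were called, 1 was called with that mean. The causes were not tested. Leaving out 1 array gave 5 to 7 calls for bleomycin under the control gapmer, 5 to 6 under gapmer 1, 6 to 7 under gapmer 3, 0 to 1 for each gapmer in bleomycin mice, 1 to 2 for gapmer 1 in PBS mice, 2 to 3 for the response with gapmer 1 and 0 for the rest. In no setting was the Trem2 rise in PBS mice with gapmer 1 lost (1.01 to 1.38 with 1 array left out, and 1.13 to 1.31 in the other settings). Samples of the same number are not stated to be paired. Their deviations had a median correlation of 0.07 over 51 pairs (-0.41 to 0.42), with 23 over 0.1. Pairs of other numbers had a median of -0.03 over 186 pairs (-0.47 to 0.72), with 47 over 0.1. Of 24 samples, 10 correlated best with a sample of their own number. The main fit takes no account of the number. With the replicate number as a block, 0 genes were called with gapmer 3 in bleomycin mice, where Gpnmb had an adjusted p of 0.0554, and Lpl lost its call for bleomycin under gapmer 1 (0.061); no other call of the 8 genes changed.

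The number of all genes called moved more. For gapmer 1 in PBS mice it was 230, and 732 with array weights, 68 with only the groups compared, 424 with the RNA integrity number, 423 with the replicate block, 551 with the muscle mean, 4 with the squamous and basal epithelial mean, 447 without the 2 arrays lowest in muscle, and 10 to 684 with 1 array left out (10, 11 and 684 without PBS control replicates 3, 1 and 2, 45, 49 and 85 without gapmer 1 replicates 2, 1 and 3). For gapmer 3 in PBS mice it was 7, and 1 to 4 with the RNA integrity number, the adipose mean, the groups compared alone or without the 2 arrays, and 2 to 30 with 1 array left out. Array weights gave 4479 in place of 2875 for bleomycin under gapmer 3, 4231 in place of 2186 and 5121 in place of 2726 for gapmers 1 and 3 in bleomycin mice, and 3251 in place of 1597 and 1763 in place of 641 for the responses with gapmers 1 and 3. Only the groups compared gave 485 in place of 1966 for bleomycin under gapmer 1, and 1278 for gapmer 1 in bleomycin mice. The RNA integrity number gave 898 for bleomycin under gapmer 1. The squamous and basal epithelial mean gave 4385 in place of 7001 for bleomycin under the control gapmer and 284 for the response with gapmer 1. For the response with gapmer 3, other settings gave 247 to 1115. Without the 2 arrays lowest in muscle, bleomycin under gapmer 3 had 1687 calls. Testing every feature gave 2975 for bleomycin under gapmer 1, and 3291 and 4116 for gapmers 1 and 3 in bleomycin mice. With 1 array left out, bleomycin under gapmer 1 had 1068 to 2273 calls, gapmers 1 and 3 in bleomycin mice 1209 to 3092 and 1775 to 3065, and the responses with gapmers 1 and 3 had 802 to 2574 and 246 to 1161.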
